A study of Mus musculus with 2 samples.

Results

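The classical MHC class II genes H2-Aa, H2-Ab1, H2-Eb1 and H2-Eb2, the invariant chain gene Cd74 and the transactivator gene Ciita were followed through peripheral blood, cell by cell, in db/db mice and wild-type (wt) controls. They are 6 of the 31053 genes counted, and they were chosen by name as a gene family, with earlier results of these data known. Both groups were male C57BLKs/J mice aged 21 weeks. The db/db genotype is a mutant Lepr, the gene of the receptor for leptin, and such mice become obese and diabetic. Each genotype gave 1 droplet library from 200 µl of peripheral blood and 3 mice, prepared after lysis of red cells, and no cell can be traced to a mouse. There were thus no replicates and no test across animals was possible: the 95% intervals reflect counting error alone, and no p-value is given.

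MHC class II molecules are pairs of an alpha and a beta chain that present peptides from engulfed proteins to CD4 T cells. In the mouse, H2-Aa and H2-Ab1 encode the alpha and beta chains of I-A, H2-Eb1 encodes the beta chain of I-E, and H2-Eb2 encodes a further E beta chain. Cd74 encodes the invariant chain, which fills the peptide groove of new class II molecules and guides them to endosomes, and is itself a surface receptor for the cytokine MIF. Ciita encodes the transactivator that is recruited to a shared set of promoter boxes, the X, X2 and Y boxes, and sets the transcription of all these genes. B cells and dendritic cells hold class II constitutively, monocytes hold less, and resting mouse T cells, neutrophils, platelets and red cells are not known as class II producers.

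The chain genes share these promoter boxes, so the 3 members with a promoter in the RefSeq table (GRCm38.p6) are shown. Each sequence is the 150 bases before the RefSeq start, read 5′ to 3′ on the strand of the gene, with the matched boxes in capitals.
H2-Aa, chr17:34287824-34287973, minus strand: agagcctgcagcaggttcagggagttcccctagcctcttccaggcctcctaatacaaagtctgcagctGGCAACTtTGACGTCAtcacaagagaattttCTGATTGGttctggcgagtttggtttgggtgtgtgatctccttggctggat
H2-Eb1, chr17:34305717-34305866, plus strand: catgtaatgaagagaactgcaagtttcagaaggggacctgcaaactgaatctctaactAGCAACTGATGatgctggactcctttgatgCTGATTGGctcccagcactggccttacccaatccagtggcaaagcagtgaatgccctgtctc
H2-Eb2, chr17:34325525-34325674, plus strand: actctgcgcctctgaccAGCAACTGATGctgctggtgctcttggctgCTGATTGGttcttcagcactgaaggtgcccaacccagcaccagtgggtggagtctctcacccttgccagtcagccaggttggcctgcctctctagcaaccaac

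All 3 promoters hold the Y box letters CTGATTGG, first base 51 bases before the start in H2-Aa, 62 in H2-Eb1 and 103 in H2-Eb2. Searched on both strands, these letters occur in 3.16% of the 32851 promoter windows of that length. Upstream of it H2-Aa has the X box core GGCAACT, present in 1.66% of windows, and the X2 box TGACGTCA, present in 1.36%. Both H2-Eb genes have AGCAACT there, present in 2.00% of windows, and the letters that follow it are the same in both genes. That whole run, without its first letter, occurs in 12 of the 32851 windows. The spacing between the X and Y boxes is thus alike in the E beta genes, while the boxes of H2-Eb2 lie farther from its RefSeq start. These matches describe letters and not binding.

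In GRCm38 the 4 chain genes lie side by side on chromosome 17: H2-Ab1 at 34257689 to 34269419, H2-Aa at 34282744 to 34287823, H2-Eb1 at 34305867 to 34316674 and H2-Eb2 at 34325665 to 34341412, H2-Aa alone on the minus strand. Cd74 lies on chromosome 18 (60803848 to 60812652) and Ciita on chromosome 16 (10480059 to 10528418), both on the plus strand. H2-Eb1 overlaps the antisense gene Gm20513 and Ciita overlaps Dexi on the opposite strand, and how the counting treated strand was not given in the sources used here.

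The wt library held 16700 barcodes with 50540198 UMIs (unique molecular identifiers, which mark single captured transcripts), against 19912 barcodes with 70039773 UMIs in the db/db library. With 200 to 6000 genes and under 10% mitochondrial UMIs, 5727 wt and 6109 db/db barcodes were kept, and 11 of these barcode sequences occurred in both libraries, of 91 shared over all barcodes. Clusters were computed without the class II genes, so a class was not chosen by them, and are called by their markers: a B cell below is a B cell-like barcode. B cells numbered 2118 in wt and 2071 in db/db, T cells 715 and 531, monocytes 124 and 368, NK cells 104 and 55, neutrophils 164 and 358, platelets 126 and 336, and erythroid barcodes 652 and 572. Clusters with markers of B cells and of red cells or platelets stayed unnamed. Most wt monocytes came from cluster 13 (72 of 124) and most db/db monocytes from cluster 14 (190 of 368). Lepr had 0 UMIs in both libraries, and 3′ reads would not show its mutation. Gm42418, a locus that picks up ribosomal RNA, took a median of 2.33% of UMIs in wt B cells and 0.433% in db/db B cells.

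Class II transcripts sat mainly in B cells. B cells held 70.5% of the chain UMIs (H2-Aa, H2-Ab1, H2-Eb1 and H2-Eb2 summed) of kept wt barcodes and 61.0% in db/db. The mixed clusters with B cell and red cell markers held a further 20.4% and 17.8%, and the one with B cell and platelet markers 2.30% and 12.6%. Monocytes held 3.61% and 4.51%. Levels are given as CPM, the UMIs of a gene over all cells of a class in a library, scaled to the same total. In such sums fewer class II-positive cells and less RNA per cell cannot be told apart. The chain sum in B cells was 10048 CPM for wt against 11410 CPM for db/db, against 172 and 102 CPM in erythroid barcodes, a class not known to make class II. Haemoglobin took 88.5% (wt) and 90.5% (db/db) of the UMIs of erythroid barcodes, which lowers the share left for all other genes there. With B cells thinned to 1000 UMIs each, a UMI of H2-Aa was seen in 93.4% (wt) and 98.9% (db/db), and in 7.63% and 6.503% of erythroid barcodes thinned alike. Before thinning these shares were 96.4%, 99.6%, 27.0% and 18.4%, at median depths of 2472.5, 2211, 5794 and 5855.5 UMIs. Thinning left out 51 wt and 29 db/db B cells that were shallower.

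**Figure D1:**
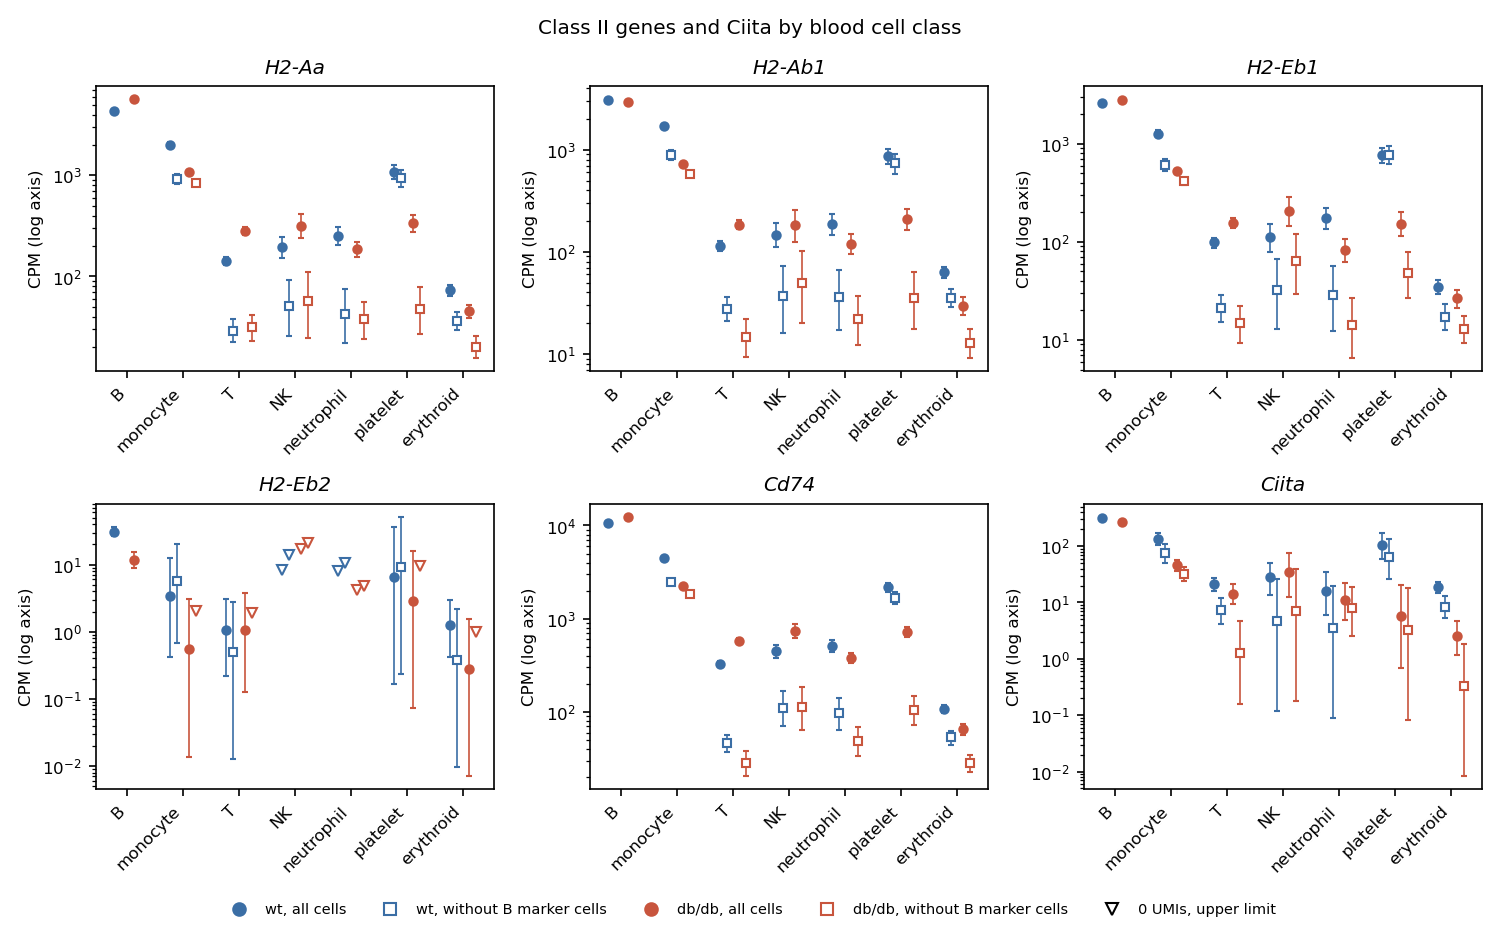
CPM of each gene (log axis) in 7 blood cell classes, blue for wt and red for db/db; filled circles use all cells of the class, open squares leave out cells with a UMI of a B cell marker such as Cd79a, Cd79b or Ms4a1, triangles are upper limits where no UMI was seen, and bars are exact Poisson 95% intervals. The CPM points of all 6 genes are highest in B cells, and outside B cells and monocytes most squares lie far below the circles; the high wt platelet squares come mainly from 1 barcode.

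In B cells the genotypes were close for most members, and the I-A chains went opposite ways. H2-Aa, the I-A alpha chain, stood at 4295 CPM in wt (interval 4241 to 4349) and 5642 CPM in db/db (5576 to 5708), with a ratio of 1.31 (1.29 to 1.34). H2-Ab1, its beta chain partner, stood at 3102 CPM and 2941 CPM, a ratio of 0.948 (0.927 to 0.969). The alpha chain count was thus higher in db/db and the beta chain count slightly lower, each beyond counting error. Both genes are highly polymorphic between mouse haplotypes. The labels give the same strain for both groups, but whether the groups share 1 H2 haplotype, and how reads of a haplotype other than that of mm10 were counted, cannot be told from these counts, so a difference in expression and a difference in mapping cannot be told apart for these genes. In cells thinned to 1000 UMIs the median B cell had 4 H2-Aa UMIs in wt and 6 in db/db, and 3 H2-Ab1 UMIs in both. H2-Ab1 reversed to a log2 ratio of 0.10 when barcodes with 100 genes were admitted and to 0.06 when classes came from the marker UMIs of each cell, so its direction is not firm.

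The E beta genes differed from each other. The limit on haplotype and mapping given above for the I-A chains applies to them too. H2-Eb1 was at 2619 CPM for wt against 2815 CPM for db/db, a ratio of 1.07 (1.05 to 1.10). H2-Eb2 had 174 UMIs in wt B cells (31.0 CPM, interval 26.6 to 36.0) and 59 UMIs in db/db (11.7 CPM, 8.94 to 15.2), with a ratio of 0.379 (0.277 to 0.511). Thinned alike, B cells had an H2-Eb2 UMI in 3.34% (wt) and 1.03% (db/db), against 0.312% of wt erythroid barcodes. Without thinning 0.175% of db/db erythroid barcodes had one. H2-Eb2 was the only one of the 6 members past 1.5-fold in B cells, where 0.714% of 10086 measured genes were past that fold higher in db/db and 1.1% lower (folds are judged on the log2(CPM + 10) scale). Gm20513, the antisense gene at H2-Eb1, had 16 and 4 UMIs.

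Cd74, the invariant chain, stood at 10579 CPM for wt against 12277 CPM for db/db B cells, a ratio of 1.16 (1.15 to 1.17). Its thinned median was 11 and 12 UMIs per cell, and every db/db B cell held at least 1 UMI. Ciita, the transactivator, stood at 316 CPM (301 to 331) and 273 CPM (258 to 287), with a ratio of 0.863 (0.804 to 0.927). It was seen in 26.0% and 22.3% of thinned B cells and in 1.56% and 0.879% of thinned erythroid barcodes. So in db/db B cells Ciita was lower while the chain sum was higher, at a ratio of 1.14 (log2 0.18). These differences between 2 libraries cannot be told apart from differences between preparations.

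**Figure D2:**
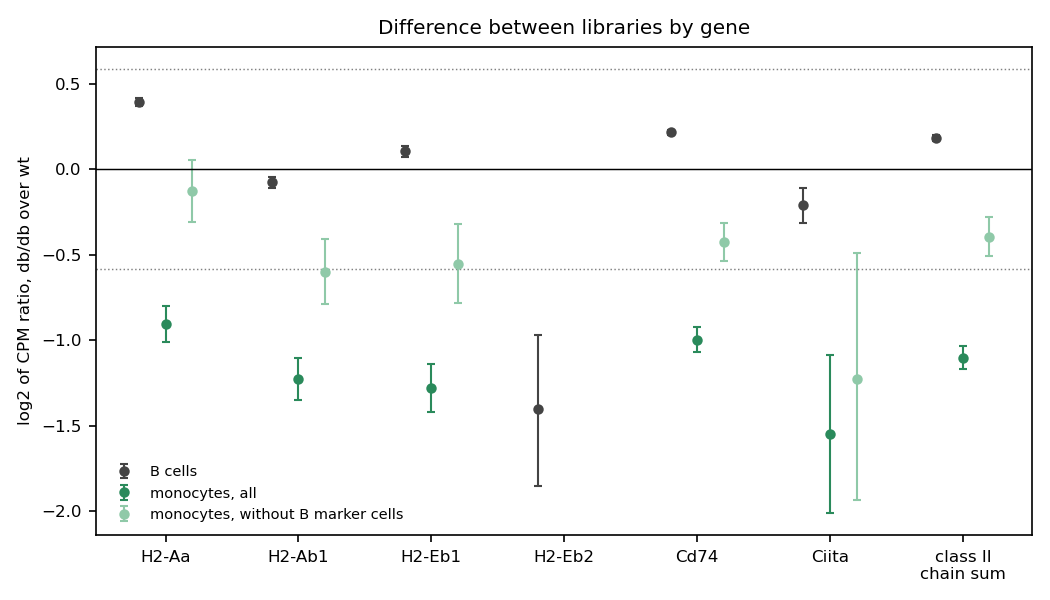
Log2 of the CPM ratio, db/db over wt, for each gene and for the sum of the 4 chains, in B cells (dark), all monocytes (green) and monocytes without B marker cells (light green); bars are exact conditional binomial 95% intervals, dotted lines mark 1.5-fold, and H2-Eb2 in monocytes (2 and 1 UMIs) is left out. B cell values lie within the 1.5-fold lines except H2-Eb2, with H2-Aa highest at 0.39, and the monocyte values move up towards 0 when B marker cells are left out.

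B cells were split into 10 subclusters, again without class II genes, to see whether the difference ran through all of them. The chain sum was lowest in wt subcluster 7, which carried red cell markers (5837 CPM), and in subcluster 4 (6101 CPM), named transitional-like for Vpreb3 and Cd24a, markers of B cells newly arrived from the marrow. It ran from 9244 to 12570 CPM in the other 8. In db/db these 2 subclusters stood at 9029 and 8188 CPM, ratios of 1.55 (1.48 to 1.62) and 1.34 (1.25 to 1.44). In the other 8 the log2 ratio lay between -0.09 and 0.10. The transitional-like subcluster held 343 wt but only 44 db/db cells. Without these 2 subclusters the chain sum of B cells was 11548 CPM for wt against 11700 CPM for db/db, a log2 ratio of 0.02 in place of 0.18. These 2 were left out after their ratios, the highest of the 10, were seen, so the smaller log2 ratio follows from that choice. Within each of the other 8 the genotypes were close in their chain sum.

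H2-Aa differed from this. It was higher in db/db in 10 of 10 B cell subclusters, with log2 ratios from 0.08 to 0.85, and in 8 of them the interval lay above a ratio of 1. The subclusters come from the same 2 libraries, so they are not replicates, here and in the counts of subclusters below. The share of all genes that go 1 way in so many subclusters was not computed. H2-Ab1 was lower in 8 of 10, with log2 ratios from -0.35 to 0.34. In the follicular-like subcluster 0, which Fcer2a is among the genes to mark and which Gm42418 leads, H2-Aa went from 4949 CPM in 778 wt cells to 5710 CPM in 157 db/db cells, and H2-Ab1 from 3510 to 3293 CPM. In the B1- or memory-like subcluster 5, led by S100a6 and S100a4, H2-Aa went from 3948 to 4935 CPM and H2-Ab1 from 2644 to 2461 CPM. In subcluster 8, led by the interferon-stimulated genes Slfn5, Ifit3 and Irf7, H2-Aa was at 5109 and 5410 CPM and H2-Ab1 at 3698 and 2997 CPM. Cd74 was higher in db/db in 10 of 10 subclusters, by log2 ratios of 0.01 to 0.53.

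H2-Eb2 and Ciita were also lower in most B cell subclusters. H2-Eb2 was lower in 9 of 10, although only 3 intervals excluded a ratio of 1. In the follicular-like subcluster wt cells had 85 UMIs (41.7 CPM) and db/db cells 4 (8.84 CPM), with a ratio of 0.212 (0.0564 to 0.562). The exception was the small subcluster 9, led by Igha and Ighg2b, with 0 UMIs in 16 wt cells and 4 UMIs in 78 db/db cells. Wt transitional-like cells held 5 H2-Eb2 UMIs (5.47 CPM). Ciita was lower in 8 of 10 subclusters, with 2 intervals that excluded 1: 393 to 304 CPM in subcluster 1 and 462 to 318 CPM in subcluster 6. Wt and db/db cells fell unevenly into these subclusters (147 wt and 616 db/db cells in subcluster 1), so the libraries stand apart within B cells.

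**Figure D3:**
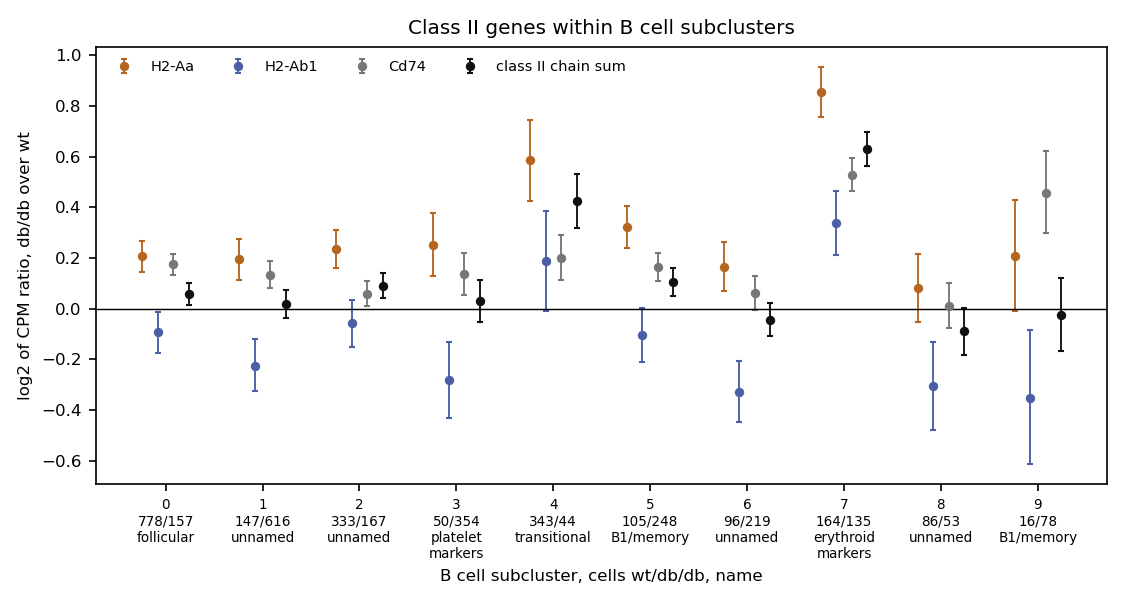
Log2 of the CPM ratio, db/db over wt, of H2-Aa, H2-Ab1, Cd74 and the chain sum in the 10 B cell subclusters, with the number of wt and db/db cells and the name under each; bars are exact conditional binomial 95% intervals. H2-Aa lies above 0 in all 10 and above H2-Ab1 in all 10, and the chain sum is far from 0 only in subclusters 4 and 7.

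The number of H2-Aa UMIs per H2-Ab1 UMI was compared because the ratio of 2 genes in the same cells does not depend on the total used for scaling. The limit on haplotype and mapping given above applies to it in full. It was 1.38 in wt B cells (1.36 to 1.41) and 1.92 in db/db B cells (1.88 to 1.957), a 1.39-fold difference (1.35 to 1.42, normal approximation). In the B cell subclusters, which share the same 2 libraries and are not replicates, it was higher in db/db in 10 of 10. They ran from 1.21 to 1.49 in wt and from 1.59 to 2.01 in db/db without overlap. Several classes that are not B cells went the same way. Monocytes without B marker cells went from 1.05 (0.892 to 1.22) to 1.45 (1.32 to 1.58). Dendritic-like cells of the monocyte class went from 1.11 (0.991 to 1.25) to 1.42 (1.27 to 1.58). Over all cells, T cells were at 1.26 and 1.52, erythroid barcodes at 1.16 and 1.53, and platelets at 1.26 and 1.59, with overlapping intervals in each. B marker cells, defined below, held 84.4% (wt) and 91.9% (db/db) of the T cell chain UMIs. They held 65.5% and 61.3% in erythroid barcodes, and 36.1% and 83.1% in platelets. The part of B cell RNA in these ratios was not tested. Without B marker cells, H2-Aa and H2-Ab1 had 59 and 56 UMIs in wt and 49 and 23 in db/db T cells. In erythroid barcodes they had 94 and 92, then 62 and 39, and in platelets 102 and 80, then 15 and 11. The point values were lower in db/db in nonclassical-like monocytes (1.22 and 1.06), plasmacytoid dendritic-like cells (1.63 and 1.38), the mixed cluster of red cell and platelet markers (2.17 and 1.94) and NK cells without B marker cells (1.38 and 1.14), all with few UMIs and overlapping intervals. Over all NK cells the ratio was higher in db/db, with 70 H2-Aa and 53 H2-Ab1 UMIs in wt and 55 and 32 in db/db.

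The same ratio in barcodes that were not kept was 1.44 in wt and 1.65 in db/db for barcodes with at least 10% mitochondrial UMIs, and 1.25 and 1.38 for those with under 200 genes. The higher alpha to beta ratio of the db/db library was thus present in its point values outside the kept cells too. For H2-Eb1 per H2-Ab1 UMI the B cell ratios were 0.844 and 0.957, and for Ciita per H2-Ab1 UMI 0.102 and 0.0927. Outside B cells Ciita per H2-Ab1 UMI was 0.297 (0.225 to 0.387) in wt erythroid barcodes against 0.0849 (0.0378 to 0.167) in db/db, and 0.185 (0.138 to 0.245) against 0.0776 (0.0504 to 0.115) in T cells. Intervals overlapped in 4 other named classes: 0.0794 and 0.0636 in monocytes, 0.189 and 0.188 in NK cells, 0.0870 and 0.0930 in neutrophils, and 0.120 and 0.0274 in platelets. The mixed cluster of B cell and red cell markers had 646 Ciita and 5060 H2-Ab1 UMIs in wt, against 394 and 4349 in db/db. That of red cell and platelet markers had 11 and 18, against 5 and 53. Ciita per H2-Ab1 UMI was thus lower in db/db in both. Median Gm42418 shares were 2.05% and 0.678% in the named erythroid class and 2.26% and 0.808% in T cells. The part of that difference in these ratios was not tested.

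**Figure D4:**
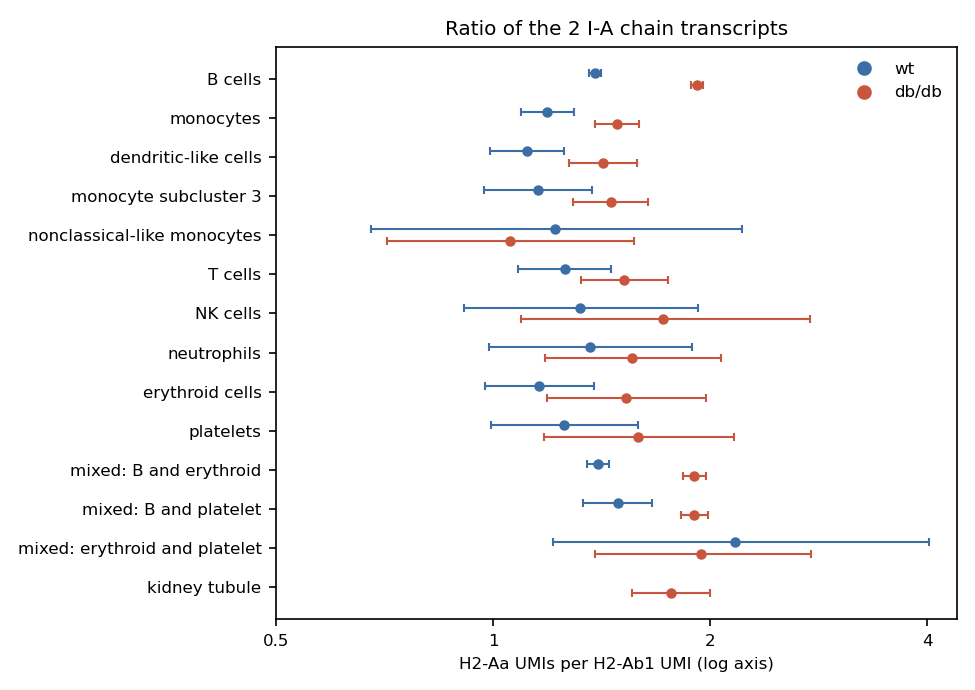
H2-Aa UMIs per H2-Ab1 UMI (log axis) in classes and subclasses, blue for wt and red for db/db; bars are exact 95% intervals from the 2 UMI sums, and values with under 20 UMIs are not drawn. B cells, dendritic-like cells and the mixed clusters with B cell markers lie farther right in db/db, with B cells at 1.38 and 1.92.

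Monocytes, the precursors of many tissue macrophages and of some dendritic cells, gave the opposite direction to B cells. The chain sum was 4980 CPM in wt (4800 to 5165) and 2318 CPM in db/db (2249 to 2389), with a ratio of 0.466 (0.444 to 0.488). H2-Aa went from 2013 to 1073 CPM, H2-Ab1 from 1693 to 723 CPM, H2-Eb1 from 1270 to 522 CPM, Cd74 from 4504 to 2257 CPM and Ciita from 134 to 46.0 CPM. For H2-Eb2 only 2 wt UMIs and 1 db/db UMI were seen. All 5 members with at least 20 UMIs were past 1.5-fold lower, where 6.39% of 7782 measured genes were lower and 4.64% higher by that fold.

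Few cells carried these UMIs. A level of 5000 CPM, set after the values were seen, was reached by 23 of 124 wt monocytes (18.5%, Clopper-Pearson interval 12.1 to 26.5) and by 35 of 368 db/db monocytes (9.51%, 6.71 to 12.98). These cells held 92.4% of the chain UMIs of wt monocytes and 86.4% in db/db. Their median chain sum was 16190 CPM for wt against 14646 CPM for db/db. The intervals of these shares overlap slightly, and the median levels of such cells were close. No chain UMI was seen in 57 wt and 232 db/db monocytes. The 5 highest cells alone gave 44.9% of the UMIs in wt and 28.7% in db/db, so the counting intervals, which treat UMIs as independent, are narrower than the spread between cells.

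Subclusters of the monocyte class placed these cells. The subcluster named classical-like for Chil3, Fn1 and Vcan had 4 wt and 85 db/db cells. The name rests on the db/db cells: Chil3 was at 2340 CPM there and 252 CPM in the 4 wt cells, of which 3 had the nonclassical marker Ace. The db/db cells held 119 CPM, of which 1 cell gave 55.7%. Nonclassical-like monocytes, the patrolling cells marked by Ace and Treml4, held 392 CPM (304 to 498) in 56 wt cells and 442 CPM (373 to 521) in 111 db/db cells, with overlapping intervals. Their Cd74 was at 1429 CPM for wt against 931 CPM for db/db. A conventional dendritic-like subcluster, marked by Flt3, Cd209a and Clec10a, held 19618 CPM in 11 wt cells and 12483 CPM in 22 db/db cells. Its single cells ran from 0 to 54219 CPM in wt with a median of 16190, and from 0 to 38449 CPM in db/db with a median of 2064. No chain UMI was seen in 1 of the 11 and in 7 of the 22.

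Those dendritic-like cells were 8.87% of wt and 5.98% of db/db monocytes but gave 55.0% and 41.5% of the chain UMIs of the class. Subcluster 3, which stayed unnamed, gave a further 24.0% and 35.0%, at 4830 CPM in 23 wt cells and 6888 CPM in 40 db/db cells. Of these cells 9 and 14 reached 5000 CPM and gave 99.3% and 96.8% of its chain UMIs, while 12 and 16 had none. Without B marker cells, defined below, it stood at 2695 and 6555 CPM, and 1 cell gave 53.5% of the wt UMIs. Subcluster 3 was led by complement C1q genes, with C1qa in 1 of 23 and 6 of 40 cells, and by Tmem176b, Isg15 and Slfn5. Nearly all its cells had the monocyte genes Csf1r and Lyz2. It also carried the classical monocyte markers Ccr2, in 22 of 23 wt and 36 of 40 db/db cells, and Ly6c2, in 19 of 23 and 24 of 40, so the numbers of classical-like cells are not compared between the libraries. Plasmacytoid dendritic-like cells, marked by Siglech, were 1 in wt (9376 CPM) and 7 in db/db (2860 CPM). The db/db ones also had Cd209a (486 CPM) and Clec10a (783 CPM), against 596 and 178 CPM in conventional dendritic-like db/db cells. Those 2 markers thus do not set the dendritic-like subclusters apart. Without the 2 dendritic-like subclusters the chain sum of monocytes was 2510 CPM for wt against 1439 CPM for db/db, a log2 ratio of -0.80. When cells with at least 2 UMIs of dendritic cell markers were left out, the monocyte chain sum turned to 773 CPM in 55 wt cells and 1141 CPM in 178 db/db cells, a log2 ratio of 0.56, so its direction depended on cells with those markers. This rule left out many more cells than the 2 dendritic-like subclusters hold, so it does not stand for dendritic cells alone.

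**Figure D5:**
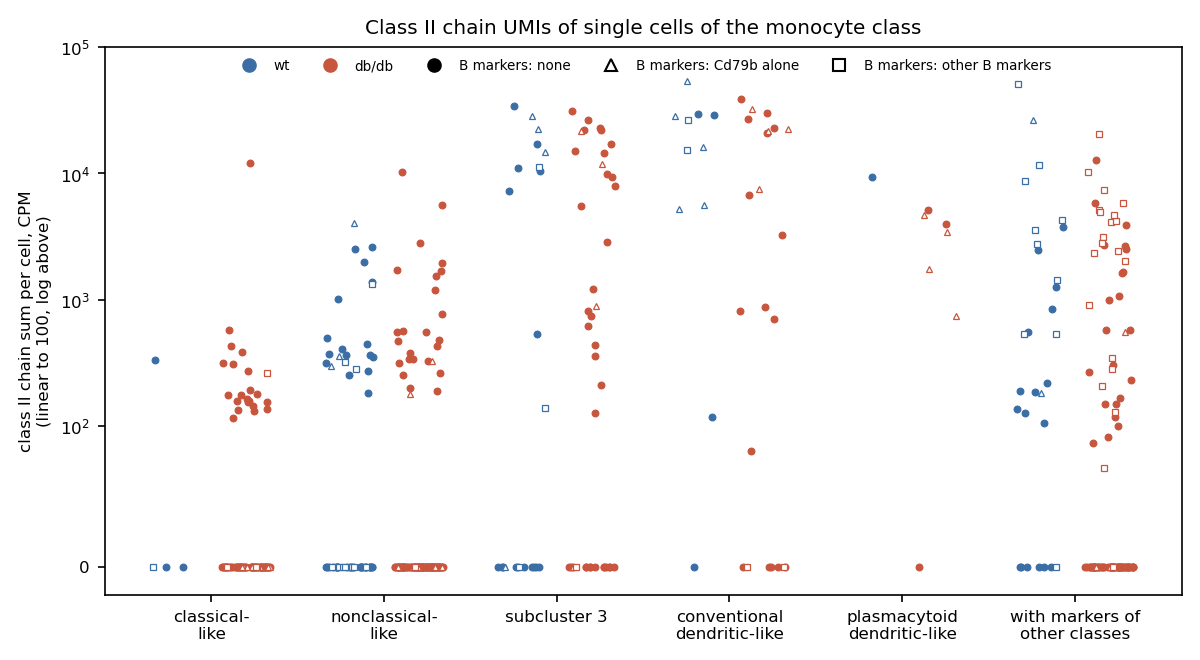
Class II chain sum of each cell of the monocyte class in CPM (linear to 100, logarithmic above), by subcluster, blue for wt and red for db/db; filled circles are cells with no B cell marker, triangles have Cd79b as their only B cell marker, and open squares have another. Cells at 5000 CPM or more sit mainly in subcluster 3 and in the conventional dendritic-like subcluster, and 5 of the 9 wt ones of the latter are triangles.

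Cells of other classes that carried B cell markers were then left out, as a barcode can hold RNA of a B cell beside that of another cell. A B marker cell had at least 1 UMI of a fixed set of B cell markers that includes Cd79a, Cd79b and Ms4a1. Among monocytes they numbered 44 (of 124) in wt, 60 (of 368) in db/db, and held 70.5% and 36.3% of the chain UMIs. Without them the chain sum was 2413 CPM in 80 wt cells (2253 to 2580) and 1835 CPM in 308 db/db cells (1767 to 1906), with a ratio of 0.761 (0.704 to 0.823). H2-Aa was at 920 and 841 CPM, a ratio of 0.914 (0.808 to 1.04) that TMM scaling turns to a log2 ratio of 0.01, and H2-Ab1 at 881 and 581 CPM (0.660, 0.579 to 0.754). H2-Eb1 was at 606 and 413 CPM, Cd74 at 2481 and 1844 CPM, and Ciita at 76.5 and 32.6 CPM with 27 and 48 UMIs. H2-Ab1 and Ciita were past 1.5-fold lower, 2 of 5 measured members, where 8.67% of 7048 genes were lower and 7.07% higher.

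The result of this step differed with and without the marker Cd79b. Cd79b encodes a chain of the B cell receptor complex. It was the only B cell marker in 5 of the 7 wt and 4 of the 6 db/db B marker cells of the conventional dendritic-like subcluster, and in all 4 of the plasmacytoid dendritic-like subcluster. Of the 23 wt monocytes at 5000 CPM or more, 15 carried a B cell marker, in 9 of them Cd79b alone. Of the 35 db/db ones 11 did, in 6 of them Cd79b alone. When Cd79b was dropped from the rule, which was decided after seeing the data, 97 wt and 339 db/db monocytes stayed and the chain sum was 5198 and 2259 CPM, a log2 ratio of -1.20 against -0.39 with Cd79b. With a rule of 2 UMIs it was -1.41. Without B marker cells and without the 2 dendritic-like subclusters it was 1168 and 1145 CPM, a log2 ratio of -0.03. Without B marker cells and without cells with markers of several lineages it was -0.02, and without B marker cells and cells with at least 2 UMIs of dendritic cell markers it was 1.25, so neither the size nor the direction is firm. In wt 5 cells gave 79.9% of the UMIs without B marker cells.

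In T cells the difference in the chain sum changed sign with the same step, from beyond counting error to within it. Over all T cells the chain sum was 355 CPM for wt against 624 CPM for db/db, a ratio of 1.76 (1.61 to 1.91). H2-Aa, H2-Ab1, H2-Eb1 and Cd74, 4 of 5 measured members, were past 1.5-fold higher, where 1.35% of 8862 genes were higher and 1.41% lower. The 184 of 715 wt and 73 of 531 db/db T cells with a B cell marker held 84.4% and 91.9% of these UMIs. Without them the sum was 78.7 CPM in wt (66.9 to 91.9) and 60.8 CPM in db/db (49.2 to 74.4), with a ratio of 0.773 (0.593 to 1.003), an interval that includes 1. H2-Aa was at 29.2 and 31.4 CPM, while H2-Ab1 was at 27.7 and 14.7 CPM, a ratio of 0.531 (0.312 to 0.878), and Cd74 at 46.0 and 28.2 CPM, a ratio of 0.612 (0.418 to 0.885). One T cell subcluster, number 7, led by Cd74 and Igkc, held 733 of the 1016 wt and 1071 of the 1175 db/db chain UMIs in 31 and 35 cells.

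In NK cells, neutrophils and erythroid barcodes the chain sum kept its direction without B marker cells, although in NK cells this rested on 1 db/db cell. B marker cells held 84.0% and 80.5% of the chain UMIs of NK cells 86.8% and 83.2% of those of neutrophils, and 65.5% and 61.3% of those of erythroid barcodes. Without them NK cells stood at 121 CPM in wt (78.98 to 177) and 170 CPM in db/db (109 to 253), and neutrophils at 107 CPM (72.2 to 153) and 74.4 CPM (54.6 to 98.9). Erythroid barcodes stood at 89.5 CPM (78.3 to 102) and 46.0 CPM (38.7 to 54.2), a ratio of 0.514 (0.414 to 0.636), where TMM scaling moves the log2 ratio from -0.83 to -0.31. In wt the intervals of NK cells, neutrophils, erythroid barcodes and T cells each overlap that of the next, and in db/db those of NK cells, platelets, neutrophils, T cells and erythroid barcodes do. By these overlaps a class II level above that of erythroid barcodes was not detectable in wt T cells, NK cells and neutrophils at this depth. In db/db the intervals of NK cells, platelets (93.8 to 177) and neutrophils lay above that of erythroid barcodes, and that of T cells (49.2 to 74.4) overlapped it. Haemoglobin took 88.5% (wt) and 90.5% (db/db) of erythroid UMIs, so their CPM is not a like background for the other classes. In db/db NK cells 1 cell gave 70.8% of the UMIs. B marker cells were more frequent in wt in each of these classes (25.7% against 13.7% of T cells, 23.8% against 7.54% of neutrophils).

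Platelets and kidney cells gave the widest gaps, and both rest on few barcodes. Wt platelets without B marker cells held 267 chain UMIs (2462 CPM) against 41 in db/db (131 CPM), but 1 wt barcode gave 240 of the 267. Without each library's top barcode the levels were 271 and 121 CPM. In platelets 4 of 4 measured members were past 1.5-fold lower over all cells, where 27.8% of 1834 genes were lower and 9.54% higher. In erythroid barcodes 4 of 5 were, where 15.6% of 2395 genes were lower and 4.13% higher, and in neutrophils 2 of 4, where 16.9% of 4125 genes were lower and 4.48% higher. TMM scaling ends these calls for erythroid H2-Aa (log2 ratio -0.07), H2-Ab1 (-0.39) and Cd74 (-0.11), and for neutrophil H2-Ab1 (-0.30). In NK cells 3 of 4 were past 1.5-fold higher, where 13.5% of 3765 genes were higher and 10.5% lower. TMM scaling ends those of H2-Aa (0.55) and Cd74 (0.58), and without B marker cells 1 member could be measured, Cd74 at a log2 ratio of 0.02. The cluster with kidney proximal tubule markers, 4 wt and 105 db/db barcodes, held 4725 CPM of chain UMIs in db/db, of which 99.1% lay in the 55 barcodes with a B cell marker. The other 50 held 14 chain UMIs, or 87.9 CPM, close to the level of other cells.

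Genes that act with class II were read from lists chosen with earlier results of these data known. The peptide exchange genes load class II in endosomes: H2-DMa, H2-DMb1 and H2-DMb2 form the exchange factor DM, and H2-Oa and H2-Ob form DO, which restrains it. In B cells 1 of 5 was past 1.5-fold, H2-Ob at 427 CPM for wt against 226 CPM for db/db, a ratio of 0.530 (0.494 to 0.569). Over all 10086 measured genes 1.1% were past that fold lower and 0.714% higher. H2-Oa, its partner, was at 203 and 193 CPM, and H2-DMa at 421 and 469 CPM. The list's median log2 ratio was -0.07 beside -0.01 over all genes. In monocytes without B marker cells 2 of 5 could be measured: H2-DMa at 300 and 254 CPM and H2-DMb1 at 142 and 56.4 CPM, a ratio of 0.399 (0.277 to 0.578).

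Transcripts of the proteins that sit on the X and Y boxes printed above differed by less than 1.5-fold in B cells. Of all 10086 genes measured there, 0.714% were past that fold higher in db/db and 1.1% lower. In B cells 0 of 7 (Rfx5, Rfxap and Rfxank of the X box complex, Creb1, and Nfya, Nfyb and Nfyc of the Y box) were past 1.5-fold, with log2 ratios from -0.22 for Nfya to 0.15 for Rfxap. Of 12 genes known to activate Ciita, such as Spi1, Pax5 and the interferon gamma pathway, 1 was past the fold, the kinase Jak2 at 43.2 CPM for wt against 72.3 CPM for db/db. Pax5, which keeps B cell identity, was at 617 and 483 CPM, a log2 ratio of -0.35. Of 4 measured genes known to restrain Ciita, Bcl6 was past the fold at 39.6 and 17.1 CPM. In monocytes without B marker cells Rfxap (48.1 and 27.9 CPM) and Nfya (42.5 and 23.8 CPM) were past it, both with intervals that include a ratio of 1, and so were Il4ra (65.1 and 29.2 CPM) and Bcl6 (147 and 83.0 CPM). Among the 7048 genes measured in these monocytes, 8.67% were past 1.5-fold lower and 7.07% higher. Ifngr1, a chain of the interferon gamma receptor, was at 445 and 642 CPM, a log2 ratio of 0.52.

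Proteases and surface partners moved little. Of 7 antigen processing genes none was past 1.5-fold in B cells or in monocytes without B marker cells. Over all genes 0.714% were higher and 1.1% lower by that fold in B cells, and 7.07% and 8.67% in these monocytes. Ctss, the protease that trims the invariant chain, was at 324 and 309 CPM in B cells and at 1243 and 1285 CPM in monocytes without B marker cells. In B cells March1, the ligase that removes class II from the surface, was at 281 and 349 CPM, a ratio of 1.24 (1.16 to 1.33). Mif, the ligand of CD74, was at 99.7 and 113 CPM. Of 5 costimulation genes none was past the fold in B cells, and Cd40 was at 62.8 and 44.8 CPM. Median log2 ratios in B cells, beside -0.01 over all genes, were -0.04 for the promoter complex list, -0.06 for the Ciita activators, -0.18 for the Ciita repressors, -0.06 for antigen processing and -0.05 for costimulation. They were 0.13 for 3 measured class II turnover genes and -0.04 for 6 other genes of the class II region. For 3 measured genes of a list of Mif and its receptors other than CD74, the median was 0.16. In monocytes without B marker cells, Tap2 of the region list (82.1 and 34.0 CPM) and Cd82 of the turnover list (82.1 and 49.6 CPM) were past 1.5-fold lower.

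The class II chain genes lie among other immune genes on chromosome 17. The limit on H2 haplotype and mapping given above applies to this region too. Between H2-K1 and Btnl2, 18 further genes were measured in B cells, of which 0 were past 1.5-fold higher and 3 lower (0.714% and 1.1% over all genes), with a median log2 ratio of -0.06. The 3 were H2-K1, a class I heavy chain (1098 and 717 CPM), Tap1, a peptide transporter subunit (125 and 74.9 CPM), and H2-Ob, the direct neighbour of H2-Ab1. With H2-Eb2 at -0.92, log2 ratios of adjacent genes ran from -0.89 (H2-Ob) and -0.08 (H2-Ab1) to 0.39 (H2-Aa) and 0.10 (H2-Eb1), so neighbours did not go together.

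Patterns over the 14 sums of a class in a library were compared by Pearson's r of log2(CPM + 10), among 7686 genes. The chain and invariant chain genes followed each other: r with H2-Ab1 was 0.995 for H2-Aa, 0.994 for H2-Eb1, 0.991 for Cd74, 0.933 for Ciita and 0.773 for H2-Eb2, which has few UMIs. Outside the members the closest to H2-Ab1 were H2-DMa (0.971), Myo1c (0.954), Ly86 (0.9501), Tnfrsf13b (0.946) and Haao (0.946). The closest to Ciita were Bcl11a (0.969), Kmo (0.960), Rubcn (0.957), Mef2c (0.956) and Hdac9 (0.951). The points share libraries and B cell RNA in other classes, so these values are a description.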

How the data were processed

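The deposited matrices hold raw UMI counts, which the authors made with Cell Ranger 3.0.2 on mm10, per the submitters' processing notes. The gene annotation and strand setting are not given in the sources used here. Labels name 1 library per genotype and 3 mice each. The 6 members and all lists were chosen with earlier results of these data known. Barcodes with 200 to 6000 genes and under 10% mitochondrial UMIs were kept and clustered together without class II genes in scanpy 1.11.5 (2000 variable genes, 30 components, 15 neighbours, Leiden resolution 1). A name needed 3 markers among a cluster's 50 leading genes, and clusters with markers of several lineages stayed unnamed. Both naming thresholds were chosen with the clusters already in view. No doublet caller was run; cells with markers of several lineages, and B marker cells, were left out as alternatives. For each class the UMIs of a library were added up and scaled to CPM, with exact Poisson intervals. Log2 ratios used CPM plus 10, and ratios an exact conditional binomial interval. A gene counts as measured from 20 UMIs over both libraries, and a fold of 1.5 as past the threshold. TMM factors came from edgeR 4.0.16. The calls were also run on simulated counts with counting error alone. That run cannot show how they fare with spread between cells, mice or preparations. Some genes of the lists and marker sets are not reported here. Named genes are the members, the lists, the genes between H2-K1 and Btnl2 and the 5 genes most like H2-Ab1 and Ciita. Positions came from GENCODE M21, which held 31011 of 31053 gene IDs.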

Additional observations from a re-analysis of the deposited data

Results flagged for a closer look

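Class II signal also appeared in barcodes outside the kept cells. Barcodes with at least 10% mitochondrial UMIs held a chain sum of 4911 CPM in 1849 wt barcodes and of 860 CPM in 374 db/db barcodes, both far above the limit that a count of 0 allows (1.70 and 2.98 CPM). A B cell marker was present in 72.6% of the wt and 30.5% of the db/db ones, and Cd79a stood at 830 and 160 CPM, so class II and B cell RNA differed together. The part of B cell RNA in this difference was not tested. Barcodes with under 200 genes held 84.1 CPM (wt) and 35.0 CPM (db/db).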

How the results depend on the processing

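With 1 library per genotype and few class II-bearing monocytes, the monocyte values depend on single cells, and H2-Eb2 and Ciita outside B cells on few UMIs. Values are log2 ratios, db/db over wt. The chain sum in B cells (0.18) stayed positive in all alternatives run. It was 0.36 with a minimum of 100 genes, 0.235 with a mitochondrial limit of 5%, 0.15 with Leiden resolution 2, 0.31 with classes from marker UMIs of each cell, 0.12 without haemoglobin, mitochondrial and Gm42418 UMIs, 0.21 with TMM scaling, 0.0855 without the transitional-like subcluster and 0.0189 also without the one with erythroid markers. The chain sum in monocytes (-1.10) was -0.88 with classes from marker UMIs, -0.996 with TMM scaling, -1.19 with every cell weighed the same, -0.79 without cells with markers of several lineages, -0.80 without the dendritic-like subclusters and -1.31 also without subcluster 3. Without B marker cells (-0.39) it was -0.26 with TMM scaling, -0.52 with every cell weighed the same, -0.0205 without cells with markers of several lineages, -1.41 with the rule of 2 UMIs, -0.60 with 10 B cell markers, -1.20 without Cd79b in the rule, -0.0282 without the dendritic-like subclusters and -0.54 also without subcluster 3. Both monocyte values reversed when cells with 2 UMIs of dendritic cell markers were left out, to 0.56 and 1.25, an alternative that left only 55 of 124 and 178 of 368 monocytes, or 40 and 155 without B marker cells. Under it H2-Aa, H2-Ab1 and H2-Eb1 in all monocytes reversed to 0.86, 0.35 and 0.28, and without B marker cells H2-Ab1, H2-Eb1, Cd74 and Ciita to 0.91, 1.52, 0.13 and 0.12. H2-Eb1 without B marker cells also reversed without the dendritic-like subclusters (0.11). In B cells H2-Ab1 reversed with a minimum of 100 genes (0.10) and with classes from marker UMIs (0.0647), and H2-Eb1 without both subclusters (-0.0645). The values without subclusters and without Cd79b were chosen after seeing the data. The cause was not tested. Over the single genes, 233 of 324 values stayed within the counting interval, 80 moved and 11 reversed. Those that stayed include all 17 of H2-Eb2 in monocytes and all 20 without B marker cells. With 2 wt UMIs and 1 or 0 db/db UMIs, these intervals are so wide that such values could hardly leave them. TMM moves the median of all genes by 0.10 in monocytes (0.14 without B marker cells), -0.13 in NK cells, 0.32 in neutrophils, 0.60 in platelets and 0.60 in erythroid barcodes. It turns H2-Eb1 in erythroid barcodes to 0.16 and, without B marker cells, H2-Aa in neutrophils to 0.12. No paired analysis was possible because each genotype has 1 library.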
